A study of Homo sapiens with 9 samples.

Results

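Oxidative phosphorylation (OXPHOS) genes were examined in HAL-01 cells, an established B cell acute lymphoblastic leukemia line that expresses the fusion protein TCF3::HLF. Members were the protein-coding genes of GENCODE release 44 whose symbols follow the naming of the subunits of complexes I to V, which gave 101 of 62700 genes. Of these, 88 are encoded in the nucleus and 13 on the mitochondrial chromosome. The cells stably carried Cas9 and GFP in all groups. They received sgRNA_96 or sgRNA_97, both directed at the TCF3::HLF-bound MEF2C enhancer, or the scrambled guide SCR1, with 3 replicates each, numbered 1, 3 and 4, and all were collected on day 13. The 6 libraries with an enhancer guide are called MEF2C-enhancer KO, as their labels call the genotype. They came from 1 cell line and were not described as clones, the share of edited cells was not analysed here, and nothing in the labels states that replicates were separate cultures, so the spread between them may be technical.

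Oxidative phosphorylation passes electrons from NADH and succinate along complexes I to IV to oxygen and uses the resulting proton gradient to make ATP in complex V. Complexes I, III, IV and V are built from subunits of both genomes, whereas complex II is encoded wholly in the nucleus. Mitochondrial mRNAs are transcribed by the polymerase POLRMT from promoters on both strands as long precursors that are cut into shorter RNAs. Their levels are thus set apart from the transcription of the nuclear subunit genes.

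Total estimated counts ranged from 15212462 to 29777361 per library, and the mitochondrial chromosome took 5.97 to 7.01% of them. MEF2C, the gene of the targeted enhancer, was measured at 560, 559 and 536 CPM (counts scaled to a common library size) in SCR1. In the KO libraries it lay between 495 and 553 CPM, and 5 of 6 were below every SCR1 library. This gave -0.12 on the log2 scale (SE 0.04) and did not pass the test (adjusted P = 0.0620, edgeR). MEF2C was called in 4 of 19 alternatives, described below, with values from -0.17 to -0.11. The paper reports MEF2C as down-regulated in this RNA-seq, and at RNA and protein level in separate assays. None of 8 B lineage markers was called. Of 12 markers of other cell types, 7 were at 0 in every library, among them CD3E, HBB and COL1A2, and the list summed to 12.48 to 13.78 CPM in SCR1 and 12.42 to 15.61 CPM in KO. The called members of that list were MPO, higher by 1.08 on the log2 scale (adjusted P = 0.000894, edgeR), and NKG7, which fell by 0.30 (adjusted P = 0.0430), a call lost under 13 of 19 alternatives, DESeq2 among them. These alternatives each changed the tool, scaling, filter or design, or left out 1 library. These are bulk samples, in which fewer cells of a type and less RNA per cell cannot be told apart.

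Nuclear OXPHOS genes were lower in the MEF2C-enhancer KO libraries, while the mitochondrial genes leaned the other way. Of 82 nuclear members with enough counts to test, 37 fell and 0 rose, and the median log2 fold change was -0.17. Of the 13 mitochondrial members, 3 rose and 0 fell, with a median of 0.10. The background was 10.6% of all 14436 genes tested called lower and 10.1% called higher, against 45.1% of the nuclear members lower and 23.1% of the mitochondrial members higher, and the median over all genes was 0.00. These calls come from the quasi-likelihood test of edgeR on gene counts with P values adjusted by Benjamini-Hochberg across the genes tested, called below 0.05, as does every adjusted P below unless another tool is named.

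Of the nuclear members tested, 77 had a value below 0 and 34 lay below all 3 SCR1 libraries in all 6 KO libraries, against 10.2% of all genes tested. Of the mitochondrial members, 12 had a value above 0 and 1 lay above every SCR1 library in every KO library, where 10.1% of all genes did so. The count of nuclear calls was 18 with an offset for the effective length of each gene in each library, 20 with an offset for a trend with gene length, 19 without SCR1 replicate 1 and 19 without SCR1 replicate 4. All genes tested were then called lower in 5.17%, 9.75%, 4.93% and 6.12% of cases.

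**Figure D1:**
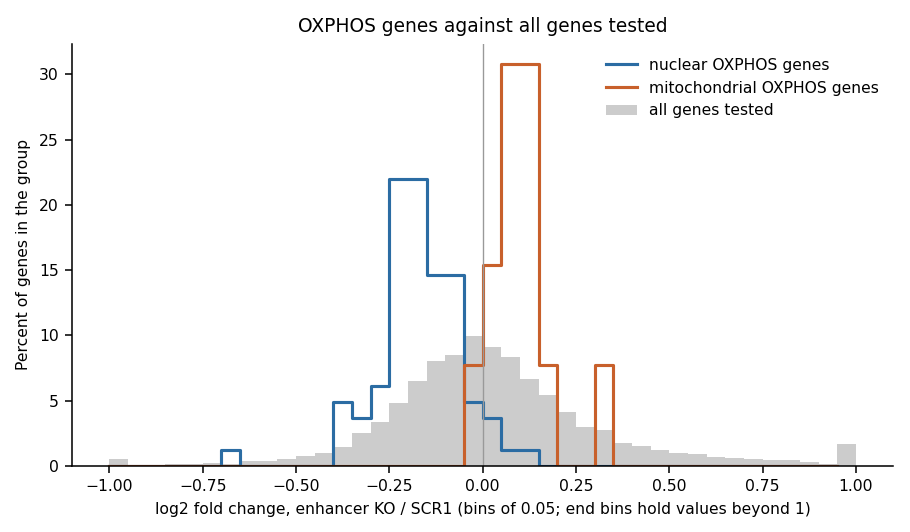
Distribution of log2 fold changes (x axis, MEF2C-enhancer KO over SCR1) as the percent of genes in each group (y axis), with all 14436 genes tested in grey, 82 nuclear OXPHOS genes in blue and 13 mitochondrial ones in orange. The nuclear genes lie mostly left of 0 with a median of -0.17, and the mitochondrial genes mostly right of it with a median of 0.10.

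Nuclear OXPHOS mRNAs were short and, by TPM, abundant. Their median transcript length was 692 bases, against 2220 bases over all genes tested, and their median level in SCR1 was 180 TPM against 13.2 TPM, where TPM is an abundance corrected for length. Between the quartiles of their length, 552 to 1083 bases, there were 1734 other nuclear-genome genes tested, of which 13% were called lower and 2.88% higher, with a median log2 fold change of -0.06. Between the quartiles of their SCR1 level, 101 to 325 TPM, there were 778 such genes, of which 40% were called lower and 6.56% higher, with a median of -0.12. The share called lower among the OXPHOS genes was thus near that of other genes of like abundance. Across the 82 members, Spearman's rho of the log2 fold change was 0.33 with transcript length, -0.40 with GC content, -0.17 with TPM in SCR1 and 0.08 with CPM in SCR1, where all 14436 genes gave 0.14, -0.21, -0.29 and -0.21. Genes are not independent replicates, and the part of length, GC content and abundance in the result was not tested beyond the offsets given above.

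The shift was seen in the summed levels as well. The nuclear members summed to 9156, 8668 and 9048 CPM in SCR1 replicates 1, 3 and 4. They summed to 8162, 8040 and 7917 CPM with sgRNA_96 and to 8136, 7975 and 7975 CPM with sgRNA_97. Every KO library lay below every SCR1 library, and the mean was 10.3% lower. The mitochondrial members summed to 55973, 56498 and 59035 CPM in SCR1, to 64889, 62539 and 56038 CPM with sgRNA_96 and to 65168, 60815 and 58230 CPM with sgRNA_97. Here the groups overlapped, with a KO mean 7.19% higher, and sgRNA_96 replicate 4 and sgRNA_97 replicate 4 fell within the control range.

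Dividing the summed mitochondrial by the summed nuclear level within a library gives a value that does not depend on how libraries are scaled. On the log2 scale this ratio was 2.61, 2.7 and 2.71 in SCR1, 2.99, 2.96 and 2.82 with sgRNA_96 and 3.0, 2.93 and 2.87 with sgRNA_97. All 6 KO libraries lay above all 3 controls, and the means were 2.67 ± 0.05 (SD, n = 3) and 2.93 ± 0.07 (SD, n = 6), a difference of 0.26. The difference from SCR1 was 0.25 with sgRNA_96 and 0.26 with sgRNA_97, from the same 3 control libraries. From TPM in place of CPM it was 0.27. By complex, the difference of the log2 ratio was 0.20 for complex I, 0.24 for complex III, 0.33 for complex IV and 0.26 for complex V, and in each of these all 6 KO libraries lay above every control. Whether the complexes differ from each other was not tested.

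**Figure D2:**
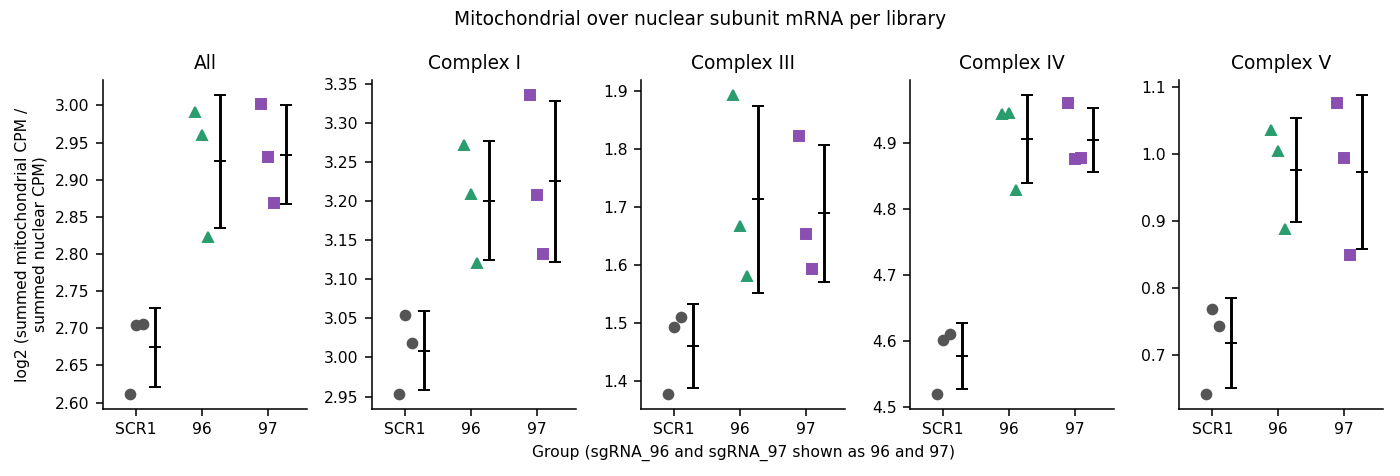
Log2 ratio of summed mitochondrial to summed nuclear subunit CPM (y axis) in each library by group (x axis), for all members and for complexes I, III, IV and V, with points for libraries and bars for mean ± SD (n = 3). In all 5 panels the KO libraries lie above the SCR1 libraries, by 0.26 in the mean over all members.

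**Figure D3:**
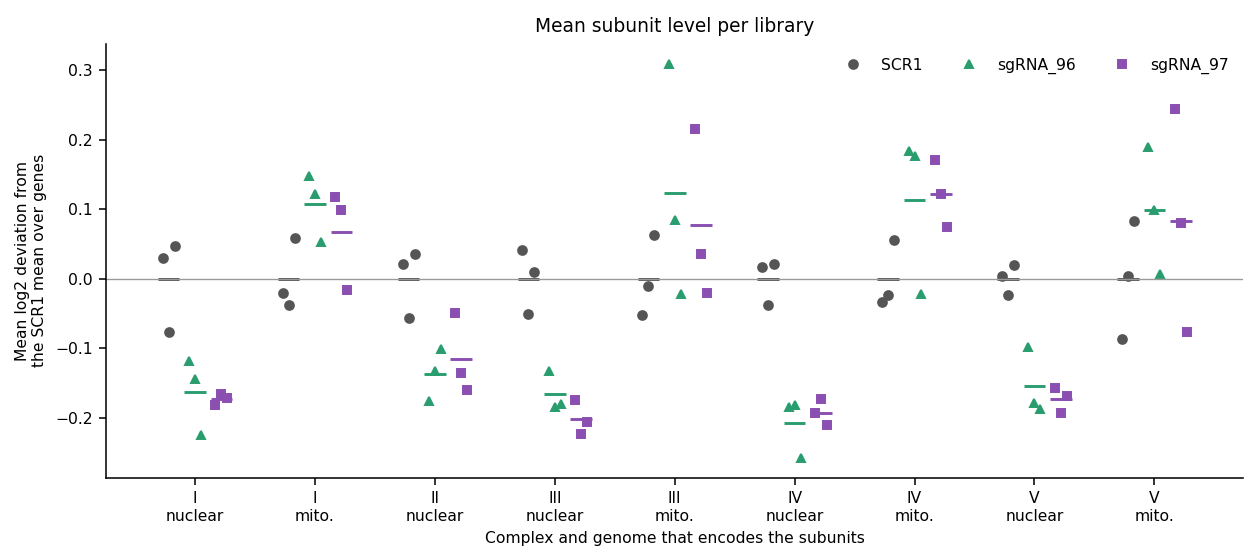
Mean over the tested genes of each complex and genome (x axis) of the log2 deviation from the SCR1 mean (y axis), with 1 point per library and a line at each group mean. Nuclear sets lie below 0 in every KO library, but SCR1 replicate 3 also lies below 0 in each. For complex II the groups overlap, with sgRNA_97 replicate 1 at -0.05 and SCR1 replicate 3 at -0.06. The mitochondrial sets spread widely, from -0.02 to 0.31 among KO libraries for complex III.

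Complex I, the NADH dehydrogenase, had 15 of 39 nuclear members lower and 0 higher, with a median log2 fold change of -0.17. For this and the other complexes the background was 10.6% of all genes tested lower and 10.1% higher. Complexes were assigned by gene symbol, so complex I here holds NDUFA4, NDUFA4L2 and NDUFC2-KCTD14. The ratios by complex use the same assignment. The accessory subunit NDUFS5 was measured at 103.5, 93.7 and 95.9 CPM in SCR1 and between 79.6 and 84.2 CPM in KO, with a median of 80.9. All 6 KO values lay below the controls, and the log2 fold change was -0.27 (SE 0.05, adjusted P = 0.000756). The accessory subunit NDUFA6 was measured at 44.5, 40.9 and 42.0 CPM in SCR1 and at 29.7 to 37.6 CPM in KO, again without overlap, and fell by 0.36 (SE 0.07, adjusted P = 0.00183), a call lost under 3 of 19 alternatives, both TPM fits (limma on log2 TPM with a pseudocount of 1 or 0.1) and the gene length offset. NDUFB9, an accessory subunit of the membrane arm, went from 83.2, 71.8 and 74.5 CPM to between 56.2 and 67.0 CPM and fell by 0.31 (adjusted P = 0.00313). NDUFC1 stood at 22.6, 21.4 and 24.3 CPM in SCR1 and at 15.03 to 21.5 CPM in KO, and fell by 0.32 (adjusted P = 0.0305), a call lost with the length trend offset and without any one of sgRNA_96 replicate 4, sgRNA_97 replicates 3 and 4, and SCR1 replicates 1 and 4.

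Of the 7 nuclear catalytic core genes of complex I, which carry the flavin and the iron-sulfur clusters, only NDUFV1, which binds the flavin, was called. It was measured at 183.7, 154.7 and 179.4 CPM in SCR1 and between 134.0 and 158.8 CPM in KO, an overlap through SCR1 replicate 3, with a log2 fold change of -0.22 (adjusted P = 0.0259) that was not past the threshold in both TPM fits, with the gene length offset, or without SCR1 replicate 1 or 4. Values of other core genes were -0.08 for NDUFS1, -0.05 for NDUFS3, -0.09 for NDUFS7, -0.20 for NDUFS8 and -0.11 for NDUFV2, with adjusted P between 0.0966 and 0.526 in edgeR. Although NDUFS3 was not called, it lay below every SCR1 library in all 6 KO libraries.

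NDUFA4L2, a paralogue of NDUFA4 known as a target of the hypoxia response, had the largest fold change of the nuclear members at a low level. It stood at 7.06, 6.79 and 5.67 CPM in SCR1 and at 2.38 to 6.0 CPM in KO, and 1 KO library reached into the control range. Its log2 fold change was -0.69 (SE 0.21, adjusted P = 0.0295), not past the threshold in both TPM fits, with the gene length offset, or without sgRNA_96 replicate 4, SCR1 replicate 1 or SCR1 replicate 3. NDUFA4, named for complex I and later assigned to complex IV, was measured at 109.9, 113.9 and 115.9 CPM in SCR1 and between 95.0 and 106.6 CPM in KO, without overlap, with a log2 fold change of -0.17 (adjusted P = 0.0208) that was lost under 6 of 19 alternatives, among them without SCR1 replicate 3 or 4.

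Complex II, succinate dehydrogenase, had 1 of 4 members lower. SDHA, the flavin-bearing subunit, was measured at 260.4, 232.1 and 245.0 CPM in SCR1 and at 208.4 to 234.0 CPM in KO, a log2 fold change of -0.17 (SE 0.05, adjusted P = 0.0203) that did not pass under 6 of 19 alternatives, among them without sgRNA_96 replicate 3, SCR1 replicate 1 or SCR1 replicate 4. Pseudogenes with the same name stem held 6.25% of the summed counts of SDHA and its copies. SDHB, SDHC and SDHD had values of -0.08, -0.12 and -0.13, with adjusted P of 0.264, 0.155 and 0.128 in edgeR.

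In complex III, the cytochrome bc1 complex, 5 of 10 nuclear members were lower, with a median of -0.23. UQCRC1, a core subunit, was measured at 181.2, 158.2 and 162.2 CPM in SCR1 and between 119.1 and 153.8 CPM in KO, with a log2 fold change of -0.36 (SE 0.07, adjusted P = 0.00132). The catalytic cytochrome c1, CYC1, went from 126.2, 114.1 and 114.1 CPM to between 85.6 and 102.0 CPM, a log2 fold change of -0.36 (SE 0.06, adjusted P = 0.000561). UQCRFS1, the Rieske iron-sulfur protein, went from 104.2, 96.3 and 102.3 CPM to between 83.3 and 87.7 CPM and fell by 0.23 (adjusted P = 0.00151). UQCRQ, a small subunit, went from 56.2, 57.0 and 55.7 CPM to between 40.7 and 52.4 CPM and fell by 0.27 (adjusted P = 0.0108), a call lost with the gene length offset. In each of these genes the groups did not overlap. The calls of UQCRC1, CYC1 and UQCRFS1 held in all 19 alternatives, 9 of which left out 1 library.

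UQCRB, a small subunit that binds ubiquinone, was the nuclear member with the highest value. It was measured at 167.4, 166.9 and 179.8 CPM in SCR1 and between 173.6 and 196.9 CPM in KO, with a log2 fold change of 0.11 (SE 0.05, adjusted P = 0.118) that did not pass. With the length trend offset it was 0.19 (adjusted P = 0.0164, edgeR). UQCRC2, the partner of UQCRC1 in the core, had a value of -0.04 (adjusted P = 0.518, edgeR). UQCRH and UQCRHL share reads, since 276 aligned bases of their transcripts differ at 4 positions, so their levels are uncertain. Their values were -0.08 and -0.24, and neither was called.

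Complex IV, cytochrome c oxidase, had 7 of 10 tested nuclear members lower and a median of -0.20. COX8A, a small transmembrane subunit, was measured at 139.5, 119.8 and 128.8 CPM in SCR1 and between 93.6 and 108.0 CPM in KO, with a log2 fold change of -0.36 (SE 0.06, adjusted P = 0.000339), and was below the controls in all 6 KO libraries. COX6A1 went from 188.4, 163.8 and 182.8 CPM to between 133.5 and 165.7 CPM and fell by 0.26 (adjusted P = 0.00626), a call lost without SCR1 replicate 1. COX5B and COX7B fell by 0.22 each (adjusted P = 0.00656 and 0.00602 in edgeR) without overlap of the groups. COX7A2L, which takes part in joining complexes into supercomplexes, and COX7C had values of -0.08 and -0.10 and were not called.

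The tissue-restricted forms of complex IV subunits were near or at 0. COX6A2, COX6B2, COX7A1 and COX7B2 had no count in any library, and COX8C reached 0.06 CPM in 1 SCR1 library. With ATP5MGL of complex V, at 0.05 to 0.40 CPM, these were the 6 nuclear members too low to test. The expressed partners COX6B1 and COX7A2 fell by 0.20 and 0.20, with adjusted P of 0.0172 and 0.00894 in edgeR, where the first call was lost with the gene length offset and without SCR1 replicate 1 or 4, and the second with the length trend offset and without SCR1 replicate 4. Of the symbols that the naming rule misses, COX4I1 had a value of -0.13 (adjusted P = 0.0735, edgeR), NDUFAB1 fell by 0.17 (adjusted P = 0.0407) and CYCS, cytochrome c, fell by 0.18 (adjusted P = 0.0096). NDUFAB1 was not past the threshold under 10 of 19 alternatives, and CYCS without SCR1 replicate 4.

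**Figure D4:**
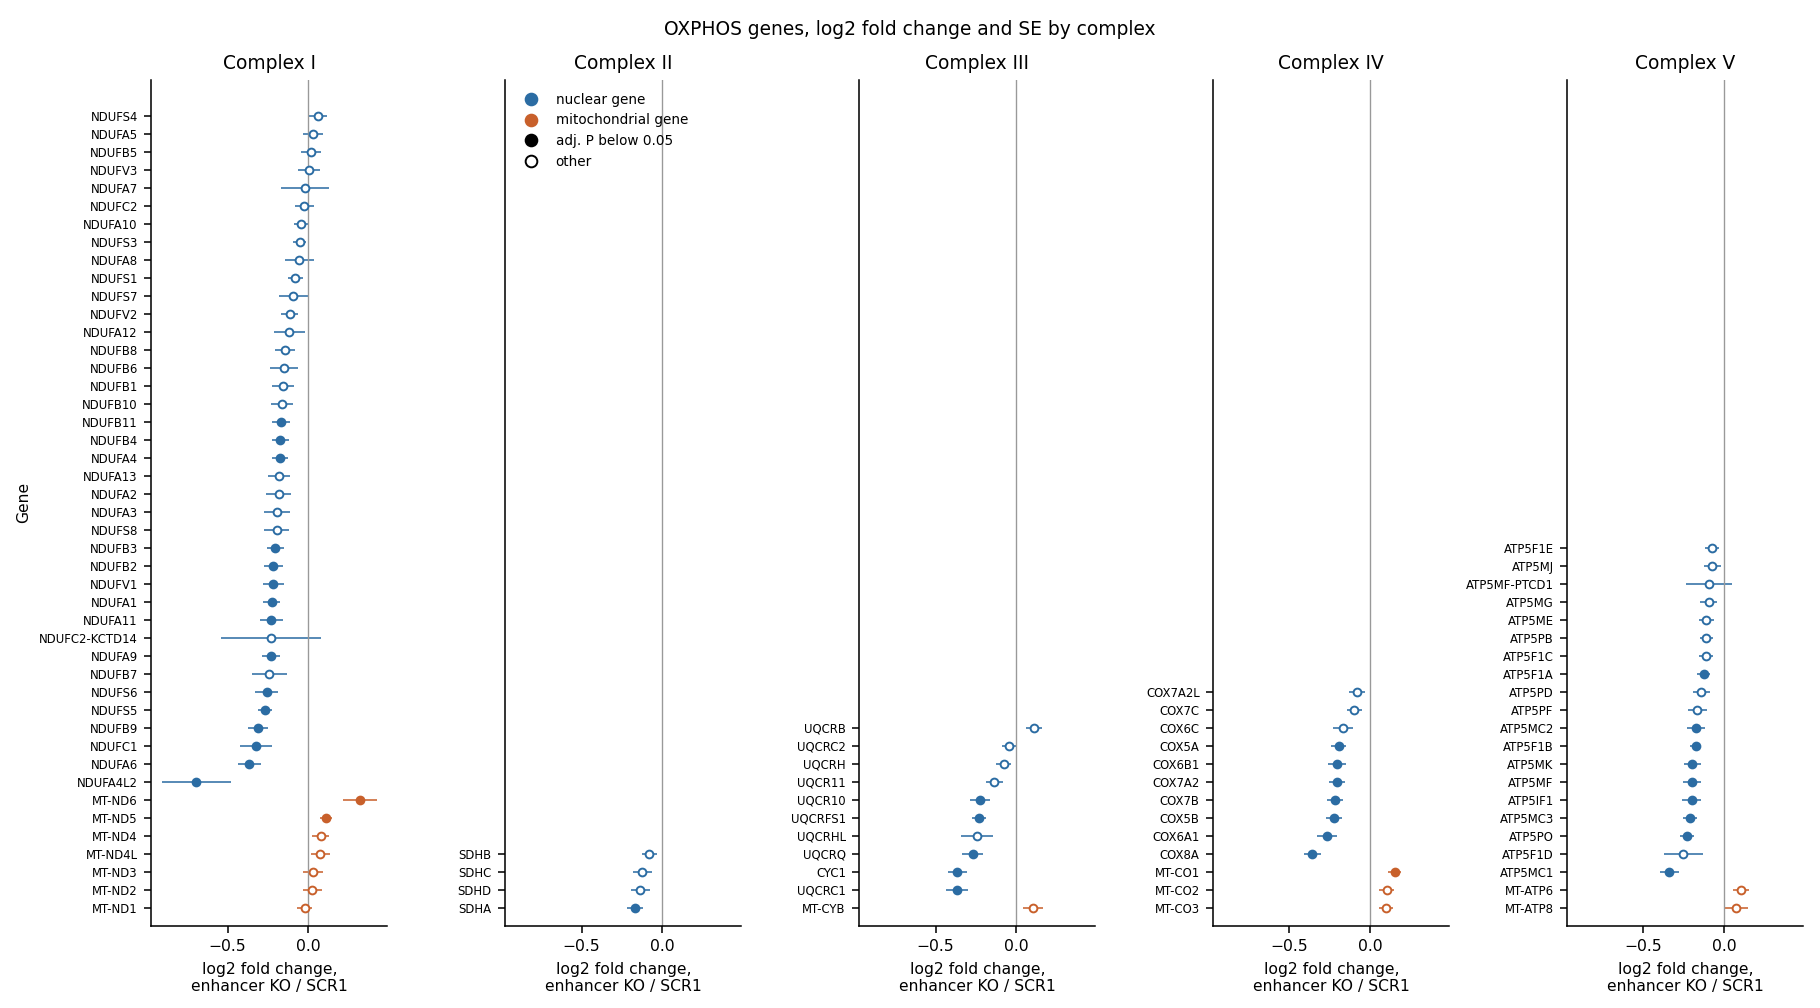
Log2 fold change of MEF2C-enhancer KO over SCR1 (x axis, bars are SE) for the tested OXPHOS genes reported here (y axis), in 1 panel per complex, with nuclear genes in blue, mitochondrial genes in orange and filled points for adjusted P below 0.05. Filled blue points lie left of 0 in every panel, and the 3 filled orange points, MT-ND5, MT-ND6 and MT-CO1, lie right of it.

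Complex V, the ATP synthase, had 9 of 19 tested nuclear members lower, with a median of -0.17. Its catalytic subunit beta, ATP5F1B, was measured at 1054, 975.1 and 999.3 CPM in SCR1 and between 873.0 and 907.6 CPM in KO. It fell by 0.18 (SE 0.04, adjusted P = 0.00261), with all 6 KO libraries below the controls. Subunit alpha, ATP5F1A, had a log2 fold change of -0.12 (adjusted P = 0.0367), which was lost under 9 of 19 alternatives. ATP5PO, a subunit of the peripheral stalk, went from 150.1, 145.8 and 154.1 CPM to between 124.4 and 135.9 CPM and fell by 0.23 (adjusted P = 0.00180).

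The same c ring protein is encoded by 3 genes, and all 3 were lower. ATP5MC1 was measured at 72.2, 72.1 and 62.9 CPM in SCR1 and between 51.8 and 60.6 CPM in KO, a log2 fold change of -0.34 (SE 0.06, adjusted P = 0.000926). ATP5MC3 went from 210.3, 198.4 and 205.0 CPM to between 164.9 and 185.5 CPM and fell by 0.21 (adjusted P = 0.00363). ATP5MC2 went from 343.2, 316.1 and 324.5 CPM to between 259.5 and 312.3 CPM and fell by 0.17 (adjusted P = 0.0313), a call lost under 8 of 19 alternatives, among them without sgRNA_97 replicate 3 or 4 and without SCR1 replicate 1 or 4. In none of these genes did the groups overlap. The inhibitor ATP5IF1 fell by 0.20 (adjusted P = 0.0190), not past the threshold with either length offset or without SCR1 replicate 1 or 4.

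The mitochondrial genome lies on a single circular chromosome with little space between genes, and reads in shared bases can be given to either gene. MT-ATP8 and MT-ATP6 share 46 bases on the plus strand at chrM:8527-8572, and MT-ND4L and MT-ND4 share 7 bases at chrM:10760-10766 (hg38, GENCODE release 44). The values within each pair are thus not fully separate. The longer stretch is shown because it holds the end of one open reading frame and the start of the other, with the start codon of MT-ATP6 in capitals.
MT-ATP8 and MT-ATP6: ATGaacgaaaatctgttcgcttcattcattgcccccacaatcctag

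The mitochondrial genes of complex I differed among themselves. MT-ND5 was measured at 1233, 1219 and 1305 CPM in SCR1 and between 1325 and 1388 CPM in KO, the only mitochondrial gene whose groups did not overlap, and rose by 0.11 (SE 0.04, adjusted P = 0.0326). The call was lost under 7 of 19 alternatives, namely no filter, both TPM fits, the GC trend offset, and without sgRNA_96 replicate 3, SCR1 replicate 1 or SCR1 replicate 3. MT-ND6 was the only gene of the 13 on the minus strand. It was measured at 76.9, 65.1 and 69.9 CPM in SCR1 and between 68.4 and 102.0 CPM in KO. It rose by 0.32 (SE 0.10, adjusted P = 0.0350), with 4 of 6 KO libraries above every control, and the call was lost under 11 of 19 alternatives, among them DESeq2 and the leaving out of any SCR1 library. The strand setting of the counting is not given in the sources used here.

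The other mitochondrial genes of complex I had smaller values. MT-ND1 was measured at 2231, 2226 and 2477 CPM in SCR1 and between 2185 and 2475 CPM in KO, a value of -0.02, the one value of the 13 below 0, and it was above 0 with the length trend offset and without SCR1 replicate 4. MT-ND2 and MT-ND3 had values of 0.03 and 0.03, which also changed sign under some alternatives. MT-ND4 was measured at 10270, 10150 and 10510 CPM in SCR1 and between 9783 and 11970 CPM in KO, a log2 fold change of 0.08 (adjusted P = 0.313, edgeR). MT-ND4L had a value of 0.08 (adjusted P = 0.398, edgeR).

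Outside complex I, MT-CO1, the catalytic subunit of cytochrome c oxidase, was measured at 13620, 13790 and 14100 CPM in SCR1 and between 13980 and 16180 CPM in KO, and 5 of 6 KO libraries lay above every control. It rose by 0.15 (SE 0.04, adjusted P = 0.0120), a call lost in 1 of 19 alternatives, without SCR1 replicate 1 (adjusted P = 0.0664, edgeR). MT-CO2 and MT-CO3 had values of 0.10 and 0.10 (adjusted P = 0.127 and 0.128 in edgeR) and MT-CYB 0.10 (adjusted P = 0.261). MT-ATP6 and MT-ATP8 had values of 0.11 and 0.08 (adjusted P = 0.130 and 0.508 in edgeR). Leaving out SCR1 replicate 1 left 0 mitochondrial genes called, and leaving out sgRNA_96 replicate 3 or SCR1 replicate 3 left 1. Of all genes tested, 5.27%, 8.48% and 7.65% were higher in these runs.

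**Figure D5:**
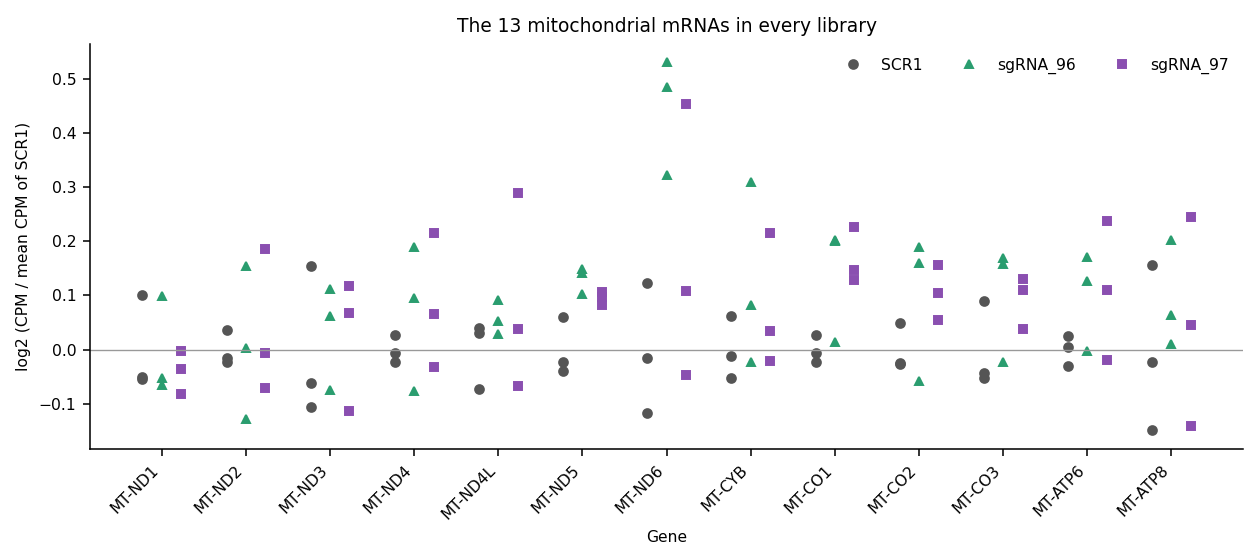
Log2 of CPM over the SCR1 mean (y axis) for the 13 mitochondrial genes (x axis), with 1 point for each of 9 libraries. MT-ND5 is the gene whose 6 KO points all lie above the 3 SCR1 points, and MT-ND6 has the widest spread among KO libraries, 68.4 to 102.0 CPM.

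Nuclear copies of mitochondrial genes can take their reads. Of 404 annotated copies of the coding genes, 58 had any count, and together they held 1.26 to 1.40% of the counts of copies and members. The copy of MT-ATP6 on chromosome 1, MTATP6P1, held 93.1 to 93.6% of these. It differs from MT-ATP6 at 10 of 681 bases, and it took 11.3 to 12.7% of the summed level of the pair. Summing the pair gave a log2 difference of 0.10. The paper names a Truseq RNA kit for the libraries and does not state a selection for mRNA. The mitochondrial rRNAs, which are no members, had counts as well. MT-RNR2 was measured at 4088, 4681 and 4753 CPM in SCR1 and between 4538 and 5765 CPM in KO and rose by 0.22 (adjusted P = 0.0238), and MT-RNR1 had a value of 0.17 (adjusted P = 0.192, edgeR).

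To see whether both guides gave these differences, each was compared with SCR1 in a fit with all 3 groups. With sgRNA_96, 20 nuclear members were lower and 0 higher, with 1 mitochondrial member higher, against a background of 5.41% of all genes tested lower and 5.78% higher. With sgRNA_97, 25 nuclear members were lower and 0 higher, with 1 mitochondrial member higher, where 7.76% of all genes were lower and 7.35% higher. The median over nuclear members was -0.17 with sgRNA_96 and -0.18 with sgRNA_97, and over mitochondrial members 0.10 and 0.09. Both comparisons use the same SCR1 libraries. The mitochondrial member called was MT-ND6 with sgRNA_96, at 0.45 (adjusted P = 0.0112, edgeR), and MT-CO1 with sgRNA_97, at 0.17 (adjusted P = 0.0272).

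By complex, sgRNA_96 lowered 6 of 39 nuclear members of complex I, 0 of 4 of complex II, 3 of 10 of complex III, 6 of 10 of complex IV and 5 of 19 of complex V. For sgRNA_97 the counts were 8, 0, 5, 6 and 6. NDUFA6 had values of -0.29 (adjusted P = 0.0236, edgeR) with sgRNA_96 and -0.45 (adjusted P = 0.00135) with sgRNA_97. COX8A had values of -0.34 and -0.37, and CYC1 of -0.35 and -0.38, all past the threshold. Directly compared, sgRNA_97 and sgRNA_96 differed in 0 of 95 members, where 0.0208% of all genes were called in either direction. The count of members called with sgRNA_96, 21 in all, was 6 without sgRNA_96 replicate 3, 7 without SCR1 replicate 1 and 9 without SCR1 replicate 4. The count with sgRNA_97, 26 in all, was 11 without sgRNA_97 replicate 3, 9 without SCR1 replicate 1 and 11 without SCR1 replicate 4. Shares of all genes for each guide were not counted in these runs.

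Nuclear subunit genes are known for promoter elements bound by NRF1, by the ETS factor GABP, by ERR receptors and by YY1. Promoters of 300 bases, from 250 before to 50 after the start, were taken from RefSeq (GRCh38.p14) for 69 of the 88 nuclear members. The letters TGCGCA, the core of an NRF1 site and its own reverse complement, occurred in 20 of 69, or 29.0%, against 8.42% of 27305 promoters. CCGGAAG, an ETS core, occurred on either strand in 27.5% against 10.7%, and AAGATGGCG, a YY1 core, in 11.6% against 1.85%. The ERR element TCAAGGTCA occurred in 1 promoter, 1.45% against 0.359%. Among members called lower and members tested but not called, the NRF1 core occurred in 9 of 29 and 10 of 36, the ETS core in 7 and 12, and the YY1 core in 3 and 5. A match is a description of letters and not a bound site.

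For 4 named genes that hold the NRF1 core (UQCRC1 and NDUFA6) or the ETS core (COX8A and UQCRQ) before the start, 60 bases are shown with these letters in capitals, read on the strand of the gene, where COX8A holds the ETS core as its reverse complement. They show the elements in genes called lower. They lie at chr3:48609773-48609832 (minus strand), chr22:42090903-42090962 (minus), chr11:63974560-63974619 (plus) and chr5:132866561-132866620 (plus) of GRCh38.
UQCRC1: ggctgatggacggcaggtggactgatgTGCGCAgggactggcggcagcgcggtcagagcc
NDUFA6: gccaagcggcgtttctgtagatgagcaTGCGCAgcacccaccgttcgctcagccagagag
COX8A: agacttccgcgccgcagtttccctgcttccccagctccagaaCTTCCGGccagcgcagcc
UQCRQ: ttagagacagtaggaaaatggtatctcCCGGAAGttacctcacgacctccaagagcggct

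The regulators of mitochondrial biogenesis showed no common direction, with 1 of 11 tested genes higher, 2 lower and a median of 0.01. Over all genes tested, 10.1% were higher and 10.6% lower. NRF1 itself had a value of -0.16 (adjusted P = 0.0821, edgeR), with all 6 KO libraries below the controls. ESRRA, which encodes the receptor ERR alpha, fell by 0.28 (adjusted P = 0.0308) and HCFC1 by 0.18 (adjusted P = 0.0362), and GABPB1, a partner of GABPA, rose by 0.18 (adjusted P = 0.0282). These 3 calls were each lost under 6 to 11 of 19 alternatives. The coactivator PPARGC1A was too low to test, at 13 counts in total, and PPARGC1B and PPRC1 had values of 0.09 and -0.02. MYC was measured at 554.2, 575.4 and 633.2 CPM in SCR1 and between 588.2 and 669.0 CPM in KO, a log2 fold change of 0.11 (adjusted P = 0.178, edgeR).

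Of the 13 genes that copy and transcribe mitochondrial DNA, 2 were lower and 0 higher. Among all genes tested, 10.6% were lower and 10.1% higher. POLRMT, the mitochondrial RNA polymerase, was measured at 91.9, 88.4 and 96.8 CPM in SCR1 and between 57.5 and 78.7 CPM in KO, without overlap. It fell by 0.44 (SE 0.08, adjusted P = 0.00111), past the threshold in all 19 alternatives. TFAM, which packages mitochondrial DNA and starts its transcription, fell by 0.15 (adjusted P = 0.0429), a call lost under 9 of 19 alternatives. Of 22 genes of mitochondrial RNA processing and stability, 5 were lower and 0 higher, beside the same shares of all genes. SLIRP, which binds mitochondrial mRNA with LRPPRC, fell by 0.35 (adjusted P = 0.00244), HSD17B10, a subunit of mitochondrial RNase P, by 0.29 (adjusted P = 0.0142) and PNPT1, an RNA-degrading enzyme, by 0.17 (adjusted P = 0.0255). The call of HSD17B10 was lost under 4 of 19 alternatives and that of PNPT1 under 7. LRPPRC had a value of 0.01 (adjusted P = 0.950, edgeR).

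Assembly factors were mostly not called, where 10.6% of all genes tested were called lower and 10.1% higher. Of 19 factors for complex I, NDUFAF6 rose by 0.30 (adjusted P = 0.000932, edgeR), from 40.3, 42.2 and 43.4 CPM to between 48.4 and 54.0 CPM, and NDUFAF2 and NDUFAF8 fell by 0.24 and 0.23 (adjusted P = 0.0252 and 0.0351), calls lost under 4 and 10 of 19 alternatives. Of 23 factors for complex IV, COA7 fell by 0.27 (adjusted P = 0.0178), a call lost under 4 of 19 alternatives, among them without SCR1 replicate 1 or 4. None of the 4 factors for complex II, 6 for complex III and 5 for complex V was called. The medians of these lists were -0.11, -0.12, 0.04, -0.05 and -0.15 for complexes I to V.

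The mRNAs of abundant proteins of other mitochondrial parts were mostly lower as well. Of 18 such genes, used as markers of mitochondrial mass, 13 were lower and 0 higher, with a median of -0.19. As given above, 10.6% of all genes tested were lower, and 40% of other genes in the TPM range of the nuclear OXPHOS members were, with a median of -0.12. The chaperones HSPE1, HSPD1 and HSPA9 fell by 0.34, 0.30 and 0.27 (adjusted P = 0.000277, 0.000343 and 0.000383 in edgeR). HSPD1 was measured at 946.5, 906.3 and 948.2 CPM in SCR1 and between 709.9 and 815.5 CPM in KO, with no overlap. The part of mitochondrial content in the lower nuclear OXPHOS levels was not tested.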

How the data were processed

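RNA-seq was made from HAL-01 cells on day 13, with 3 libraries each for sgRNA_96, sgRNA_97 and SCR1 and groups taken from the sample titles. The authors trimmed the reads, aligned them to hg38 with STAR and quantified transcripts with Salmon. They deposited estimated counts per transcript, without normalization, and TPM, a length-corrected abundance on a common scale. Here the estimated counts were summed per gene, rounded and tested with edgeR 4.0.16 in R 4.3.3 (filterByExpr with a minimum count of 10, TMM, quasi-likelihood test). CPM are counts over the TMM-scaled library size. The 6 KO libraries formed a single group, and guides came from a fit with 3 groups. DESeq2 1.42.0 and limma 3.58.1, on log2(TPM + 1) and log2(TPM + 0.1), were alternatives, and the effective length and trend offsets, normalizations and leave-outs were others. Salmon divides reads among similar transcripts, so gene models that share exonic bases, as 46 of 82 nuclear members tested do, rest on that division. The median of these was -0.17, as for the other 36. The antisense strand cannot be separated, since strand use was not stated.

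Members and lists were chosen with earlier results of these data known, and the length and abundance ranges after the fold changes were seen. Named genes were all 13 mitochondrial genes, up to 4 nuclear members per complex with the largest change among those past the threshold, the catalytic subunits and the paralogues, and up to 3 genes per other list with the smallest adjusted P. UQCRB, UQCRC2, COX7C, SDHC, SDHD, COX4I1, NDUFS5, MT-RNR1 and MT-RNR2 were added with their values known. Some genes of the lists are counted but not reported here by name. The comparison of KO with SCR1 was run first on simulated counts, with the main fit and some of the alternatives. These were DESeq2, the replicate block, TMM from nuclear genes and the length and GC trend offsets. The other alternatives and the guide comparisons were not run on simulated counts. Each library counted once. Chi-square per gene between replicates was 4.32 to 8.62, above sampling noise, which cannot show whether replicates were separate cultures. Counting error alone is small at these depths.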

Additional observations from a re-analysis of the deposited data

Results flagged for a closer look

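In 3 of 48 values checked over the 6 MEF2C-enhancer KO libraries, 1 library lay apart from the rest by Dixon's test, where chance flags about 1 in 20, or 2.4 of them. UQCRC1 stood at 153.8 CPM in sgRNA_96 replicate 1 and between 119.1 and 129.6 CPM in the other KO libraries. ATP5MC1 stood at 60.59 CPM in the same library and between 51.75 and 54.64 CPM in the others. UQCRFS1 stood at 83.27 CPM in sgRNA_96 replicate 3 and between 86.21 and 87.69 CPM in the others. Each of these KO values was still below every SCR1 library.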

How the results depend on the processing

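Of the counts of called members and the ratio, 122 values under alternatives were the same by the rule used and 26 moved. This rule allowed counts to differ somewhat and still be the same, and counts of 0 that stayed 0 were included. A count could not change direction by it. The ratio could and kept its sign, although alternatives that only rescale libraries cannot alter it. The nuclear median stayed below 0 in all alternatives. With the gene length offset 18 nuclear members were lower, and with the length trend offset 20 were lower, 1 was higher (UQCRB) and 6 mitochondrial members were higher. Of all genes tested, 5.17% and 9.75% were then lower, and 5.4% and 8.89% higher. On log2(TPM + 1) and on log2(TPM + 0.1), 1 mitochondrial member was higher, 6 members were called with sgRNA_96 and 13 with sgRNA_97. Between KO and SCR1 these fits called 4.23% and 4.33% of all genes tested higher. The gene length offset gave 9 and 10 for these guides, the GC trend offset 36 for sgRNA_96 and the length trend offset 15 for sgRNA_97. Without the filter, 1 member, MT-ND6, differed between the guides (-0.26, adjusted P = 0.0314, edgeR). Leaving out 1 library at a time gave 19 to 45 nuclear members lower, 0 to 4 mitochondrial members higher, 6 to 28 members called with sgRNA_96 and 9 to 32 with sgRNA_97. Between KO and SCR1 these runs called 4.93 to 13.1% of all genes tested lower and 5.27 to 11.7% higher. Shares of all genes for each guide were not counted under the alternatives. The ratio of the genomes differed by 0.22 to 0.28. The cause of these shifts was not tested.

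Over all genes, correlations of same-numbered deviations were -0.084 to 0.065, with 0 of 9 over 0.1. Those of differently numbered libraries were -0.069 to 0.114. The summed mitochondrial members fell from replicate 1 to 3 to 4 with sgRNA_96 (64889, 62539 and 56038 CPM) and with sgRNA_97 (65168, 60815 and 58230 CPM). In SCR1 they rose in that order (55973, 56498 and 59035 CPM). The labels do not say what the number stands for, and whether it marks a batch was not tested further. With the replicate block 37 nuclear members were lower, 36 of them shared, and 2 mitochondrial members were higher. Of all genes tested, 10.5% were then lower and 9.82% higher.

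Values of genes not called in either setting changed sign as follows. With the length trend offset MT-ND1 was 0.0504, NDUFS3 0.02, LRPPRC -0.0408 and PPARGC1B -0.0283. With the GC trend offset MT-ND3 was -0.0132, NDUFS7 0.0157, LRPPRC -0.0357 and PPRC1 0.0251. Without the filter LRPPRC was -0.0041. PPRC1 was 0.0848 on log2(TPM + 1), 0.087 on log2(TPM + 0.1) and 0.0831 with the gene length offset. Leaving out 1 library gave ranges of -0.0515 to 0.0307 for MT-ND1, -0.0079 to 0.0575 for MT-ND2, -0.0216 to 0.115 for MT-ND3, -0.1862 to 6e-04 for NDUFS7, -0.0303 to 0.0277 for LRPPRC and -0.0685 to 0.0319 for PPRC1.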
